A study of Homo sapiens with 18 samples.

Results

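Small Cajal body RNAs (scaRNAs) are guide RNAs that direct chemical modification of the spliceosomal small nuclear RNAs (snRNAs), and 8 rows of the table that carry C/D box guides or are longer composite scaRNAs are described here. The rows are U85, U89, U90, U91, U93, mgU2-19/30, mgU2-25/61 and mgU12-22/U4-8. They were taken by name, 8 of 2462 rows, by a rule that uses no measured value. Small RNA was sequenced in 18 libraries of HEK293T, a human embryonic kidney line, and of the extracellular vesicles (EVs) it released. The 6 groups of 3 libraries were vesicles of ATG7-/- cells, vesicles of ATG12-/- cells, vesicles of wild type cells, and ATG7-/-, ATG12-/- and wild type cells. All groups, controls included, had gone 24 h without serum. Each knockout is 1 clone, F2 for ATG7 and D9 for ATG12, so an effect of the genotype and a difference of the clone cannot be told apart. ATG7 and ATG12 belong to the enzyme system that couples LC3 and its relatives to membrane lipids, and the study asked which RNAs reach vesicles through it. The 3 libraries of a group are called biological replicates with no word on separate cultures, so p-values measure the spread between these libraries.

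Cajal bodies are nuclear bodies in which snRNAs are modified as the spliceosome's particles mature. A C/D box guide pairs with its target and directs methylation of a ribose, an H/ACA box guide directs conversion of a uridine to pseudouridine, and a composite scaRNA joins guide domains in 1 molecule. U85 and U89 combine a C/D and an H/ACA domain and act on U5 snRNA, U90 is a C/D guide for U1 and U91 a C/D guide for U4. U93 joins H/ACA domains and acts on U2 and U5. mgU2-19/30, mgU2-25/61 and mgU12-22/U4-8 are named for the snRNA positions they guide.

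In wild type vesicles U91, mgU12-22/U4-8 and mgU2-25/61 were higher than in wild type cells, and the reverse held for mgU2-19/30, U93, U90 and U89. For mgU2-25/61 this depended on how libraries were scaled. The 3 higher rows also had the lowest fold changes in ATG7-/- over wild type vesicles, while U93 was not called. The values were 0.228 times wild type for mgU2-25/61, 0.269 for U91 and 0.273 for mgU12-22/U4-8. Both comparisons use the wild type vesicle libraries, so this match is not independent, and U91 and mgU12-22/U4-8 appear to share most of their reads. In ATG12-/- vesicles U93 rose, to 40.7 ± 5.36 normalised reads against 17.6 ± 2.44 in wild type vesicles (SD, n = 3 each).

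RefSeq or GENCODE release 29, both on GRCh38, placed 7 of the 8 names. mgU2-25/61 is SCARNA2, 420 bases at chr1:109100193-109100612 on the + strand, where it overlaps an exon of the long noncoding RNA AL356488.2. mgU2-19/30 is SCARNA9, 353 bases at chr11:93721513-93721865 on the + strand, in an intron of CEP295. U93 is SCARNA13, 275 bases at chr14:95533355-95533629 on the − strand, in an intron of SNHG10. The gene GLRX5, on the other strand, covers 127 of its bases, and an exon of GLRX5 overlaps U93. Whether counting used the strand is not stated, so reads of U93 and of that exon cannot be told apart. U91 belongs to SCARNA17, which RefSeq gives as 421 bases and GENCODE as 144. GENCODE holds the U91 domain as an entry of its own, 83 bases at chr18:49814361-49814443 on the + strand. That entry overlaps an exon of SNHG22. The remaining 3 are U85 (SCARNA10, chr12:6510222-6510551, + strand, an intron of NCAPD2), U89 (SCARNA12, chr12:6967337-6967606, − strand, in PHB2, overlapping an annotated exon) and U90 (SCARNA7, chr3:160514907-160515236, − strand, an intron of KPNA4). The GC content was 65.5% in mgU2-25/61 and 54.2% in the U91 domain, against 37.3% in U90, 40.2% in mgU2-19/30, 45.5% in U85, 47.6% in U93 and 57.8% in U89. The U91 domain shares an exact run of 29 bases with a GENCODE entry at chr1:26006216-26006299. mgU2-19/30 shares a run of 38 bases with an entry at chrX:20136306-20136385. How reads with several matches were counted is not given.

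These 4 sequences are shown because the results turn on them: U91 and mgU2-25/61 were high in vesicles, mgU2-19/30 was high in cells, and U93 rose in ATG12-/- vesicles where others fell. They are from GENCODE transcripts on GRCh38, 5′ to 3′, with T for U. Capitals mark TGATGA (the letters of the core of box C), CTGA (the letters of box D, marked wherever they occur), GTGTGTGT runs, and the ACA that lies 3 bases before the end of an H/ACA RNA. mgU2-19/30 is shown from base 31 to base 330 and mgU2-25/61 from base 321 to base 420.
U91: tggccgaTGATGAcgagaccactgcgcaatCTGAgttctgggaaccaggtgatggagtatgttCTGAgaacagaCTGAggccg
mgU2-25/61: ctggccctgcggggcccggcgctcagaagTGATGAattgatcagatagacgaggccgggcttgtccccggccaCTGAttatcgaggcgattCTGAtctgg
mgU2-19/30: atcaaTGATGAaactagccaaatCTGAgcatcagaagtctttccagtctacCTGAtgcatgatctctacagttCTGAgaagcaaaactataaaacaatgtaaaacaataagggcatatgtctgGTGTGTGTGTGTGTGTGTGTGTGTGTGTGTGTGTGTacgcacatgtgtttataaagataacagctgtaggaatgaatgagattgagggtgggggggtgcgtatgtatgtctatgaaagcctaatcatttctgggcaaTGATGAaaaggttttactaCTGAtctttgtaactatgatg
U93: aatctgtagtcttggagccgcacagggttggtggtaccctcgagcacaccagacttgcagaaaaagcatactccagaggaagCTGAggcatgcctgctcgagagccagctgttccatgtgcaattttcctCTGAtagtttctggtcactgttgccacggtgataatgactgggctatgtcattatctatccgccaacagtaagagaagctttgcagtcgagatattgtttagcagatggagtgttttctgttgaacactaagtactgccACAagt

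The motifs were searched on the RNA strand only, and CTGA can overlap TGAG, which was searched as the core of the Cajal body localisation box. U91 held TGATGA at base 8 and CTGA 3 times, the last at base 75. In mgU2-25/61 the TGATGA stood at base 350 and the CTGA at bases 394 and 412, all in the last part of the RNA. mgU2-19/30 held TGATGA at bases 36 and 291, CTGA 6 times, and an uninterrupted GT repeat that gave 15 overlapping matches of GTGTGTGT from base 154 on. U93 held no TGATGA, held CTGA 2 times, letters found in 83.3% of stretches of its length, and, of the 7 placed rows, it alone had ACA 3 bases from its end. The label of C/D and composite RNAs therefore covers U93 only as a composite of H/ACA domains, as known for this RNA. U85, U89 and U90 held 1 TGATGA each, at bases 7, 6 and 7. As a measure of how common the letters are, 3.31% of lincRNA transcripts held TGATGA in a first stretch as long as the U91 entry and 15.5% in one as long as mgU2-25/61. CTGA was in 39.4% of stretches as long as U91 and in 89.7% of those as long as mgU2-19/30, TGAG in 80.7% of stretches as long as U93, and GTGTGTGT in 1.22% of stretches as long as mgU2-19/30. A match describes the letters only.

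Values are normalised reads, that is, whole reads divided by 1 size factor per library. Vesicle libraries held 1881080 to 3382605 assigned reads and cell libraries 1188388 to 1804089, and 1 read was worth 1.17 to 1.89 normalised reads in vesicles and 0.477 to 0.824 in cells. The 8 rows together held 203 to 935 reads per vesicle library and 757 to 1240 per cell library. Their share of assigned reads was 0.00767% to 0.00967% in ATG7-/- vesicles, 0.0196% to 0.0268% in ATG12-/- vesicles and 0.0385% to 0.0456% in wild type vesicles, against 0.0604% to 0.0772% over all cell libraries. These sums and shares include both U91 and mgU12-22/U4-8, so reads that this pair appears to share are counted in each row. In wild type vesicle replicate 1, U91 had 136 of the 935 reads. In wild type cell replicate 1, U91 had 20 of the 1240 reads. Any such inflation is therefore larger in the vesicle library than in the cell library of this replicate. In vesicles U85, U89 and U90 rested on 3 to 24 reads per library, so their values are the least precise there. U93 was also low, with 11 to 14 reads in wild type, 12 to 15 in ATG7-/- and 23 to 32 in ATG12-/- vesicle libraries. In cell libraries U91 had 9 to 21 reads and mgU12-22/U4-8 had 9 to 25. All 8 passed the filter of 10 normalised reads in 3 libraries in every fit. Replicate libraries of a group differed by at least 6.06 times what counting alone would give, so none was a copy of another. Since values are relative to the rest of a library, fewer vesicles that hold an RNA and less of it per vesicle cannot be told apart. The ATG7 and ATG12 mRNAs were not analysed here, so the knockout labels were not checked against them.

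Of the microRNAs listed as markers of blood and liver, 5 of 6 have a row. Their summed level was 166 to 259 normalised reads in ATG7-/- vesicles, 241 to 323 in ATG12-/- vesicles and 88.99 to 130.1 in wild type vesicles, and 1.27 to 11.4 over all cell libraries. miR-486-5p and miR-150-5p carried most of it, and miR-144-3p had 0 or 1 read in each library. The sum of these markers was therefore higher in knockout than in wild type vesicles, the direction opposite to that of most rows described here. It does not speak for each marker. miR-223-3p had 8, 6 and 6 reads in ATG7-/- vesicles, 14, 6 and 8 in ATG12-/- vesicles and 7, 8 and 4 in wild type vesicles. miR-122-5p had 6, 6 and 7 reads in ATG7-/- vesicles, 4, 2 and 4 in ATG12-/- vesicles and 5, 3 and 2 in wild type vesicles. The part of these markers in any result was not tested.

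Some rows appear to overlap in reads, or belong to the same gene, and are not taken as separate observations. U91 never had more reads than mgU12-22/U4-8: the latter was at least as high in 18 of 18 libraries and equal in 3, with a gap of 0 to 6 reads and totals of 845 and 810. Their Pearson correlation over the 18 libraries was 0.998 on the log2 scale. Counts among the 8 rows include both, so a count that holds the pair overstates the number of separate RNAs. HBII-382, another row of the table, is a RefSeq synonym of SCARNA2, the same gene as mgU2-25/61, and it correlated with mgU2-25/61 at 0.997.

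**Figure D1:**
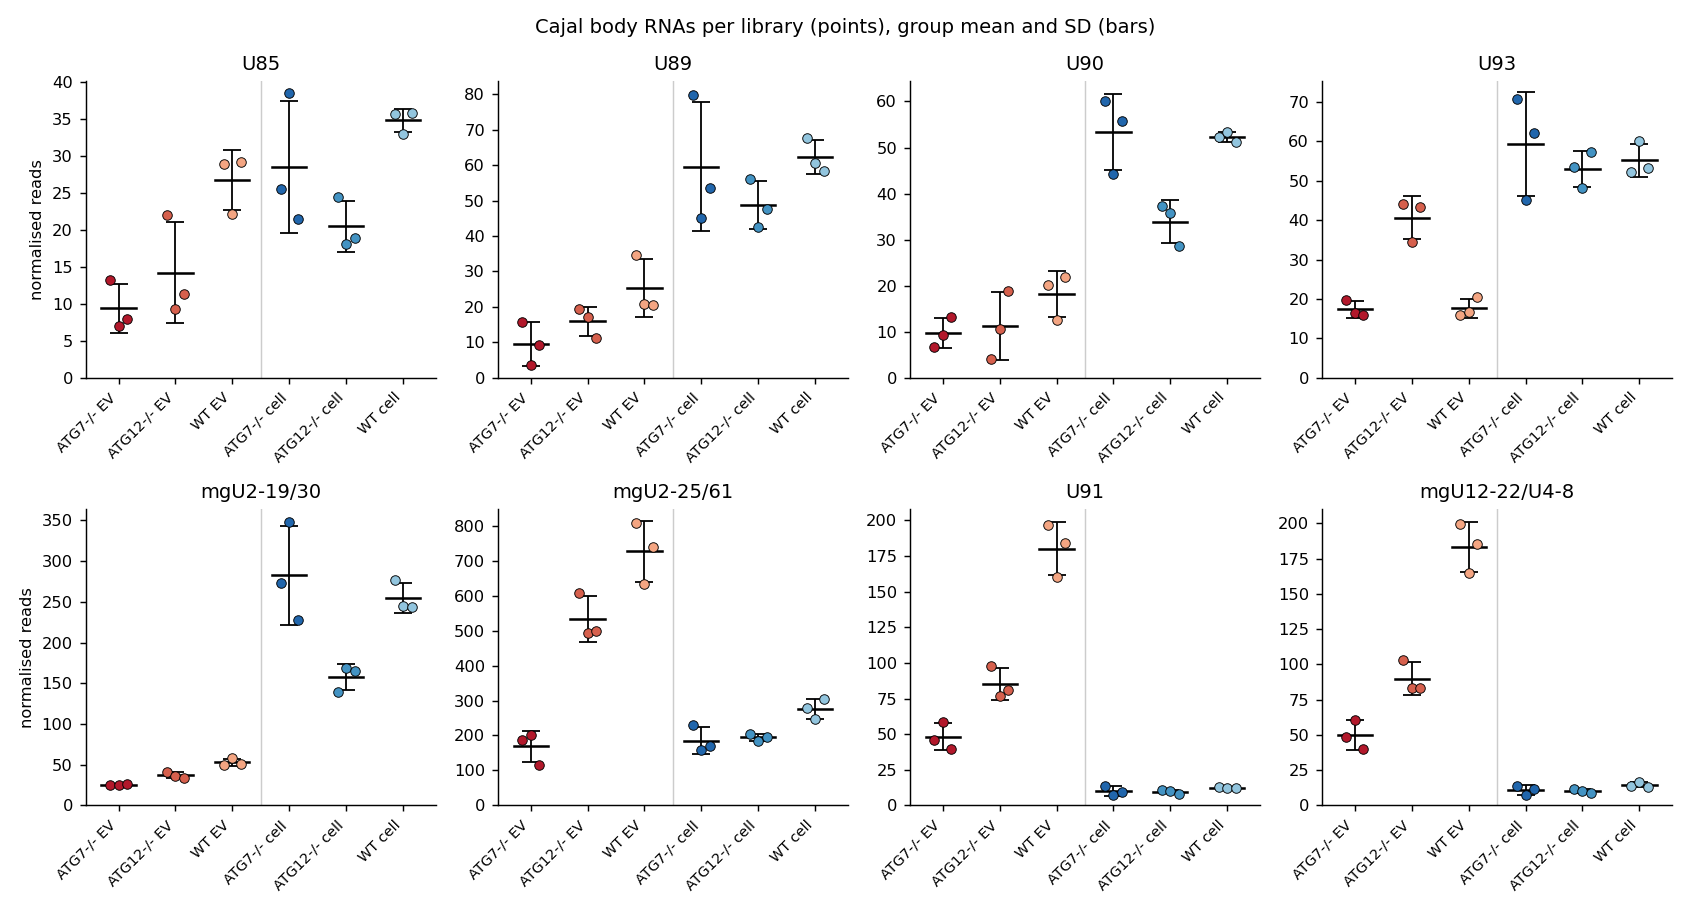
Normalised reads (y axis, each panel on its own scale from 0) of the 8 Cajal body RNAs in ATG7-/-, ATG12-/- and wild type (WT) vesicles (EV) and then in cells of the same genotypes. Each point is 1 library, horizontal lines are group means and vertical bars SD (n = 3); U91, mgU12-22/U4-8 and mgU2-25/61 stand above wild type cells in wild type vesicles, and U93 is highest among vesicles in the ATG12-/- group.

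Wild type vesicles were set against wild type cells to see which of these nuclear RNAs are found in vesicles. 3 of 8 rows were called higher and 4 lower in vesicles, where a call is an adjusted p under 0.05 (limma, Benjamini-Hochberg over the 905 features tested). Over all features 38.9% were called higher and 42.9% lower, so the shares among the 8 are near the background.

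U91, the C/D guide for U4, had 197, 160.4 and 184 normalised reads in wild type vesicles, against 12.7, 12.5 and 12.4 in wild type cells. The groups did not come near each other, and the log2 fold change was 3.74 (SE 0.23, adjusted p = 1.46e-12). mgU12-22/U4-8, which appears to share most of its reads with U91, had a log2 fold change of 3.57 (SE 0.23, adjusted p = 3.8e-12). mgU2-25/61 had 807, 633 and 738 in wild type vesicles, against 279, 247 and 304 in wild type cells, a log2 fold change of 1.39 (SE 0.19, adjusted p = 5.96e-07). All 3 vesicle libraries were above all 3 cell libraries for each of these rows.

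mgU2-19/30, also a guide for U2, went the other way with 49.1, 58.1 and 51.1 in wild type vesicles, against 276.5, 245.4 and 243.9 in wild type cells. Its log2 fold change was -2.25 (SE 0.17, adjusted p = 4.25e-11). U93 had 15.9, 16.6 and 20.4 in wild type vesicles, against 52.2, 60.0 and 53.3 in wild type cells (log2 fold change -1.60, SE 0.21, adjusted p = 4.27e-07). Both RNAs were lower in every vesicle library than in any wild type cell library.

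U90 averaged 18.2 ± 5.04 in wild type vesicles, against 52.3 ± 1.16 in wild type cells (SD, n = 3 each; log2 fold change -1.51, SE 0.36, adjusted p = 6.2e-04). U89 averaged 25.3 ± 8.15 in wild type vesicles, against 62.2 ± 4.75 in wild type cells (log2 fold change -1.31, SE 0.36, adjusted p = 0.00204). U85 was not called, at 28.9, 22.1 and 29.2 in wild type vesicles, against 35.7, 33.0 and 35.8 in wild type cells (log2 fold change -0.38, SE 0.31, adjusted p = 0.267).

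The knockouts gave a similar split with shifted sizes. In ATG7-/- vesicles against ATG7-/- cells, 2 rows were called higher and 5 lower (40.0% and 42.8% over all features): U91 with a log2 fold change of 2.16 (SE 0.23) and mgU12-22/U4-8 with 2.11 (SE 0.23), then U85 at -1.51, U93 at -1.70, U90 at -2.38, U89 at -2.68 and mgU2-19/30 at -3.41. mgU2-25/61 was not called there, with 187, 202 and 117 in ATG7-/- vesicles and 229, 158 and 169 in ATG7-/- cells (log2 fold change -0.16, SE 0.19, adjusted p = 0.441). In ATG12-/- vesicles against ATG12-/- cells, 3 rows were called higher and 3 lower (39.2% and 41.1% over all features). U91 and mgU12-22/U4-8 both had a log2 fold change of 3.00 (SE 0.23), mgU2-25/61 had 1.44, and U89 had -1.57, U90 -1.71 and mgU2-19/30 -2.06. U93 at -0.38 (adjusted p = 0.102) and U85 at -0.58 (adjusted p = 0.094) were not called.

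The size of these folds depends on how vesicles and cells are scaled to each other. Scaling by library totals shifted the all-feature median log2 value by -1.44 for wild type, -1.91 for ATG7-/- and -2.07 for ATG12-/-, and the higher share of all calls was 19.4%, 17.7% and 14.3% against 47.6%, 48.3% and 48.8% with the deposited factors. The wild type value of mgU2-25/61 then became -0.13 (adjusted p = 0.496) and its ATG12-/- value -0.66, called lower (adjusted p = 0.00121). U91 stayed called higher for wild type at 2.27 and for ATG12-/- at 0.99, but at 0.27 (adjusted p = 0.28) its ATG7-/- call was lost. mgU2-19/30 was lower under both scalings in all 3 genotypes.

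**Figure D2:**
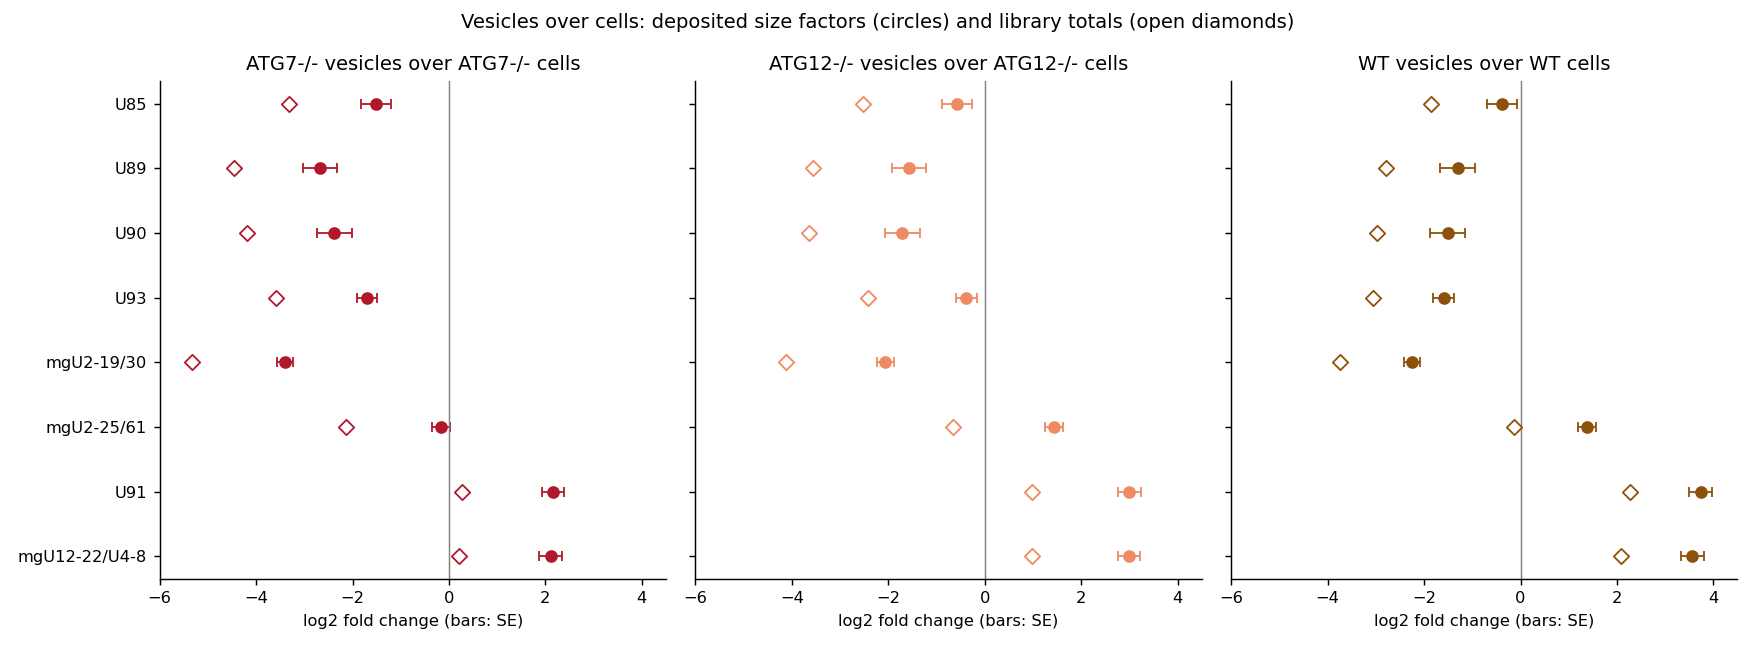
Log2 fold change of vesicles over cells (x axis) for the 8 Cajal body RNAs in ATG7-/-, ATG12-/- and wild type (WT) libraries. Filled circles with SE bars use the deposited size factors and open diamonds use library totals; the diamonds lie to the left by a similar amount for each RNA of a genotype, and mgU2-25/61 crosses 0 for ATG12-/- and wild type.

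ATG7-/- vesicles were then set against wild type vesicles, the comparison that asks what changes in vesicles without ATG7. 6 of 8 rows fell and none rose, where 28.9% of all 850 features fell and 33.5% rose. The same 6 did not overlap between groups, against 68.0% of all features in either direction. The median log2 fold change of the 8 was -1.46, beside 0.11 for all features.

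mgU2-25/61 had 187, 202 and 117 normalised reads in ATG7-/- vesicles and 807, 633 and 738 in wild type vesicles. Its log2 fold change of -2.13 (SE 0.19, adjusted p = 7.45e-07) was the lowest of the 8. U91 had 46.2, 58.4 and 39.8 in ATG7-/- vesicles and 197, 160.4 and 184 in wild type vesicles (log2 fold change -1.90, SE 0.19, adjusted p = 1.52e-06). mgU12-22/U4-8, apparently from largely the same reads, fell by 1.87 on the log2 scale (SE 0.19, adjusted p = 1.87e-06). All 3 ATG7-/- libraries lay below all 3 wild type libraries for each of these rows, which are the rows that stood higher in wild type vesicles than in their cells. Both comparisons use the wild type vesicle libraries, so that match is not independent.

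The mixed guides U85 and U89 also fell. U85 had 13.2, 7.01 and 7.96 in ATG7-/- vesicles and 28.9, 22.1 and 29.2 in wild type vesicles (log2 fold change -1.45, SE 0.37, adjusted p = 0.00381). U89 had 15.8, 3.50 and 9.28 in ATG7-/- vesicles and 34.7, 20.7 and 20.4 in wild type vesicles (log2 fold change -1.47, SE 0.45, adjusted p = 0.0115). Without ATG7-/- vesicle replicate 2, which held 3 reads of U89, that value was -0.96 and its adjusted p 0.0508. mgU2-19/30 had 25.1, 24.5 and 26.5 in ATG7-/- vesicles and 49.1, 58.1 and 51.1 in wild type vesicles, with little spread in either group (log2 fold change -1.02, SE 0.20, adjusted p = 5.9e-04).

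U90 and U93 were not called. U90 had 6.59, 9.34 and 13.3 in ATG7-/- vesicles and 20.2, 12.4 and 21.9 in wild type vesicles, and 1 library of each group overlapped (log2 fold change -0.85, SE 0.48, adjusted p = 0.142). U93, the H/ACA scaRNA, had 19.8, 16.3 and 15.9 in ATG7-/- vesicles and 15.9, 16.6 and 20.4 in wild type vesicles, a log2 fold change of -0.02 (SE 0.25, adjusted p = 0.947). Scaling by library totals shifted the all-feature median by -0.36 and the higher share of all calls to 31.8%, against 53.7% with the deposited factors; U90 was then called at -1.20 (adjusted p = 0.0396).

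ATG12-/- vesicles against wild type vesicles gave a smaller and more mixed picture. 2 of 8 rows fell and 1 rose, where 21.1% of all features fell and 22.6% rose. The 2 that fell were U91 and mgU12-22/U4-8, which appear to share most of their reads and are not taken as separate observations. Groups did not overlap for 7 of 8 rows, 6 lower and 1 higher, against 52.7% of all features. For U85 the nearest libraries had 22.06 in ATG12-/- and 22.12 in wild type vesicles, and for U89 they had 19.3 and 20.4. Both gaps are below the worth of 1 read, and the lower rows include the pair of U91 and mgU12-22/U4-8. The median log2 fold change of the 8 was -0.72, beside 0.05 for all features.

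U91 had 97.9, 76.9 and 81.1 in ATG12-/- vesicles and 197, 160.4 and 184 in wild type vesicles, a log2 fold change of -1.07 (SE 0.19, adjusted p = 4.9e-04). mgU12-22/U4-8 gave -1.02 (SE 0.19, adjusted p = 7.2e-04). U93 rose, with 44.1, 34.5 and 43.4 in ATG12-/- vesicles and 15.9, 16.6 and 20.4 in wild type vesicles (log2 fold change 1.16, SE 0.25, adjusted p = 0.00192). All 3 ATG12-/- libraries lay above all 3 wild type libraries for U93, and it was called in 19 of 19 alternative analyses, at 0.79 to 1.27.

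The other 5 rows were lower on average without a call. mgU2-25/61 had 608, 493 and 498 in ATG12-/- vesicles and 807, 633 and 738 in wild type vesicles (log2 fold change -0.44, SE 0.19, adjusted p = 0.083). mgU2-19/30 averaged 37.0 ± 3.86 in ATG12-/- vesicles and 52.8 ± 4.70 in wild type vesicles (SD, n = 3 each; log2 fold change -0.50, SE 0.20, adjusted p = 0.0595). U85 had 22.1, 9.28 and 11.3 in ATG12-/- vesicles against 28.9, 22.1 and 29.2 in wild type vesicles (log2 fold change -0.95, SE 0.37, adjusted p = 0.0541), and without ATG12-/- vesicle replicate 1 it was called at -1.29 (adjusted p = 0.0152). U89 had a log2 fold change of -0.62 and U90 of -0.82, with SE of 0.45 and 0.48. Under library totals the all-feature median shifted by -0.35, the higher share of all calls was 22.2% against 51.8%, and 6 of 8 rows were called: U85, mgU2-19/30 and mgU2-25/61 joined as lower and U93 stayed higher, at 0.82.

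The knockouts also differed from each other in vesicles. In ATG12-/- over ATG7-/- vesicles 5 of 8 rows were called higher and 0 lower, where 26.6% of all features were called higher and 23.3% lower. mgU2-25/61 had the widest gap, 608, 493 and 498 in ATG12-/- vesicles and 187, 202 and 117 in ATG7-/- vesicles (log2 fold change 1.69, SE 0.19, adjusted p = 2.15e-05). U93 followed with 1.18 (SE 0.25, adjusted p = 0.00171), mgU12-22/U4-8 with 0.85 (SE 0.19, adjusted p = 0.00245) and U91 with 0.82 (SE 0.19, adjusted p = 0.00288). mgU2-19/30 was called at 0.52 (SE 0.20, adjusted p = 0.0449), a call that 4 of 19 alternatives gave, including none of those that left out a library. U89 at 0.85, U85 at 0.51 and U90 at 0.03 were not called. These 3 vesicle comparisons share libraries, so likeness between them is not independent.

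Cells of each knockout were compared with wild type cells in the same way. ATG7-/- cells against wild type cells gave 1 lower row and 0 higher, where 8.32% of all 853 features fell and 8.44% rose. That row was mgU2-25/61, with 229, 158 and 169 in ATG7-/- cells and 279, 247 and 304 in wild type cells (log2 fold change -0.59, SE 0.16, adjusted p = 0.0216). The call was lost without ATG7-/- cell replicate 2 (adjusted p = 0.0612) or 3 (adjusted p = 0.0633) and without wild type cell replicate 1 (adjusted p = 0.065) or 3 (adjusted p = 0.0809). TMM factors from microRNAs shifted the all-feature median by -0.53, and the higher share of all calls was then 3.2%, against 50.3%, with 6 of the 8 rows called lower. The other 7 rows were not called, with log2 fold changes of -0.42 for mgU12-22/U4-8, -0.32 for U85 and for U91, -0.10 for U89, 0.02 for U90, 0.08 for U93 and 0.13 for mgU2-19/30. U91 had 14.0, 7.37 and 9.28 in ATG7-/- cells and 12.7, 12.5 and 12.4 in wild type cells, so its groups overlapped where those in vesicles did not.

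ATG12-/- cells against wild type cells gave 4 lower rows and 0 higher, where 18.2% of all features fell and 7.5% rose. mgU2-19/30 had 139, 169 and 165 in ATG12-/- cells, against 276.5, 245.4 and 243.9 in wild type cells (log2 fold change -0.69, SE 0.16, adjusted p = 0.0089). U85 averaged 20.5 ± 3.45 in ATG12-/- cells, against 34.8 ± 1.58 in wild type cells (SD, n = 3 each; log2 fold change -0.75, adjusted p = 0.0335), and U90 averaged 33.9 ± 4.61 in ATG12-/- cells, against 52.3 ± 1.16 in wild type cells (log2 fold change -0.62, adjusted p = 0.0242). mgU2-25/61 had a log2 fold change of -0.50 (adjusted p = 0.0344). The mgU2-25/61 call was lost without any 1 of the 6 libraries, that of U85 without ATG12-/- cell replicate 2 or 3 or any wild type cell replicate, and that of U90 without ATG12-/- cell replicate 3 or any wild type cell replicate. Only mgU2-19/30 of these 4 kept its call under TMM factors, edgeR and DESeq2, and none did with library totals, which shifted the all-feature median by 0.23 and the higher share of all calls to 62.7%, against 29.2%. U93 at -0.06, U91 at -0.34, U89 at -0.35 and mgU12-22/U4-8 at -0.45 were not called.

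ATG12-/- over ATG7-/- cells gave 2 lower rows and 0 higher, where 14.4% of all features were lower and 5.63% higher. They were mgU2-19/30, with 139, 169 and 165 in ATG12-/- cells and 272.6, 348 and 228 in ATG7-/- cells (log2 fold change -0.82, SE 0.16, adjusted p = 0.00493), and U90 (log2 fold change -0.64, SE 0.18, adjusted p = 0.025). The U90 call was lost without ATG12-/- cell replicate 3 (adjusted p = 0.107) or ATG7-/- cell replicate 1 (adjusted p = 0.0592). With library totals the higher share of all calls was 53.1%, against 28.1%, and the all-feature median shifted by 0.14. The other 6 rows were not called, with log2 fold changes of -0.43 for U85, -0.25 for U89, -0.14 for U93, -0.03 for mgU12-22/U4-8, -0.02 for U91 and 0.09 for mgU2-25/61. The order of groups for mgU2-19/30 in cells was therefore ATG7-/-, wild type, ATG12-/- from high to low, and ATG7-/- and wild type did not differ beyond their spread.

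**Figure D3:**
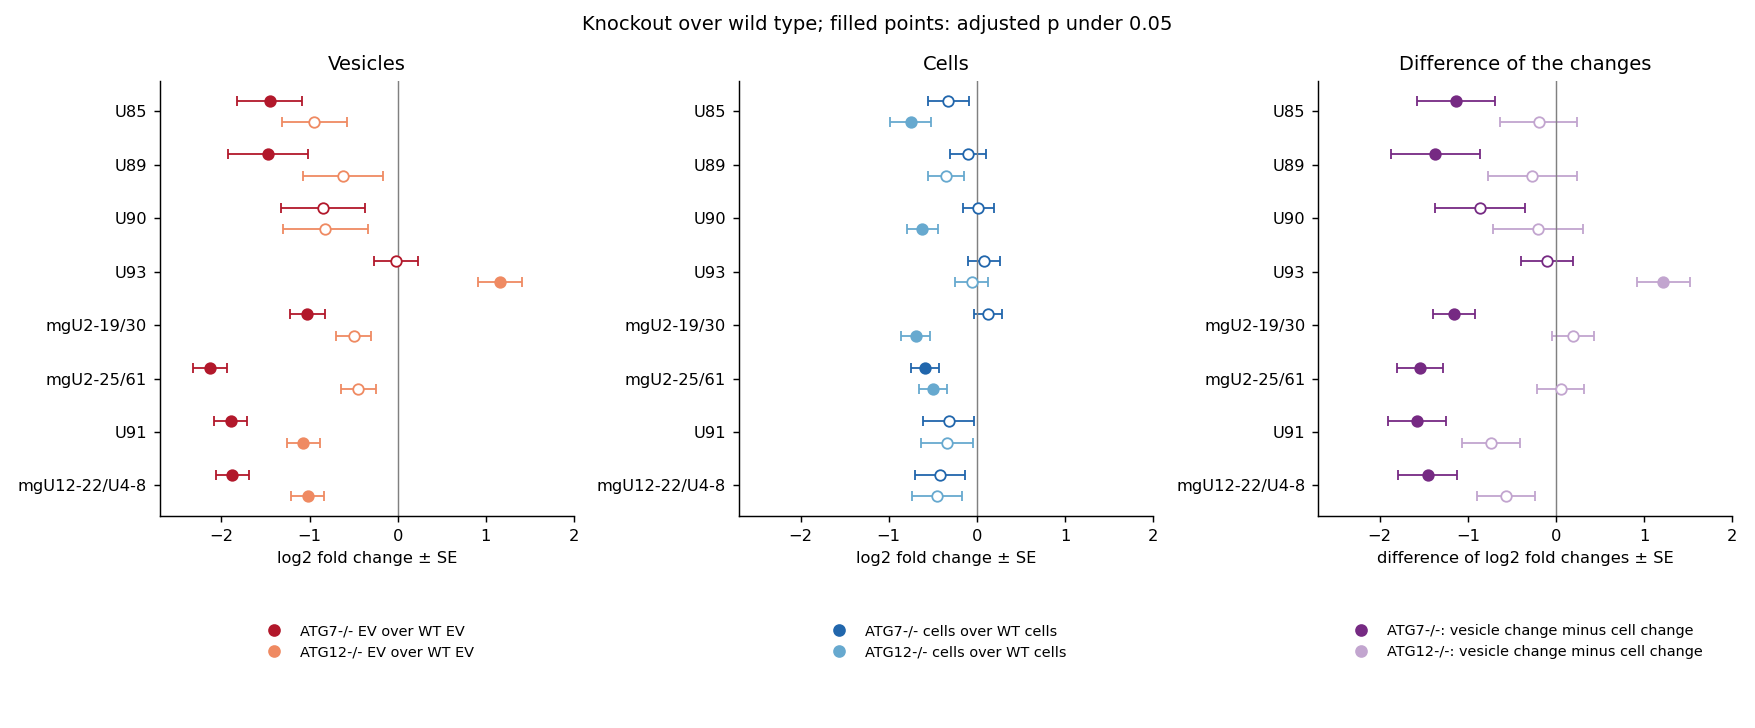
Log2 fold changes with SE bars (x axis) of the 8 Cajal body RNAs for ATG7-/- and ATG12-/- over wild type in vesicles (left) and in cells (middle), and the difference of the vesicle change minus the cell change for each knockout (right). Filled points have an adjusted p under 0.05; in ATG7-/- vesicles 6 points are filled and all lie below 0, and U93 is the only row above 0 in ATG12-/- vesicles.

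Whether a change in vesicles exceeded the change in the cells they came from was tested as an interaction over all 18 libraries. For ATG7-/-, 6 of 8 rows had a larger fall in vesicles than in cells and 0 the reverse, where 28.7% of all features had a lower and 26.3% a higher difference. The differences of log2 fold changes were -1.58 for U91 (SE 0.33, adjusted p = 4e-04), -1.54 for mgU2-25/61 (SE 0.26, adjusted p = 5.84e-05), -1.46 for mgU12-22/U4-8, -1.37 for U89, -1.15 for mgU2-19/30 and -1.13 for U85. U90 at -0.87 and U93 at -0.10 were not called. Library totals shifted the all-feature median by -0.43 here, with a higher share of all calls of 17.9%, against 47.8%. For ATG12-/-, U93 alone was called, with a difference of 1.22 (SE 0.30, adjusted p = 0.00508), where 14.4% of all features had a higher and 12.0% a lower difference. The U93 call was lost with library totals (0.63, adjusted p = 0.133), which shifted the all-feature median by -0.56 and gave a higher share of all calls of 6.9%, against 54.4%. The other 7 differences were not called in the main test, at -0.74 for U91, -0.57 for mgU12-22/U4-8, -0.27 for U89, -0.20 for U85 and for U90, 0.05 for mgU2-25/61 and 0.19 for mgU2-19/30. With library totals U91 (-1.28, adjusted p = 0.00428) and mgU12-22/U4-8 (-1.12, adjusted p = 0.0134) were called lower. U91 was called in 4 of 29 alternatives and mgU12-22/U4-8 in 1 of 29. U93 had 53.4, 48.2 and 57.3 in ATG12-/- cells, against 52.2, 60.0 and 53.3 in wild type cells, groups that overlapped, so the cells showed no matching difference beyond their spread.

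Ratios of 2 rows within a library do not depend on its scaling, and 4 ratios were formed after the values had been seen, in 32 comparisons of groups. No comparison of 3 with 3 libraries can give an exact two-sided permutation p below 0.1, and every ratio whose groups did not overlap reached that value (0.128 after Benjamini-Hochberg adjustment over the 32). mgU2-25/61 over mgU2-19/30 was 6.70 ± 2.03 in ATG7-/- vesicles, 14.4 ± 0.523 in ATG12-/- vesicles and 13.9 ± 2.79 in wild type vesicles (SD, n = 3 each). In cells the ratio was 0.679 ± 0.201 for ATG7-/-, 1.25 ± 0.199 for ATG12-/- and 1.09 ± 0.137 for wild type. Vesicle and cell libraries did not overlap in this ratio, ATG7-/- vesicles lay below both other vesicle groups, and ATG12-/- and wild type vesicles overlapped (exact permutation p = 0.8). ATG7-/- cells, at 0.454 to 0.84, likewise lay below ATG12-/- cells, at 1.10 to 1.48, and wild type cells, at 1.01 to 1.25.

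U93 over mgU2-19/30 was 0.685 ± 0.0961 in ATG7-/- vesicles, 1.10 ± 0.16 in ATG12-/- vesicles and 0.336 ± 0.0582 in wild type vesicles. The 3 vesicle groups did not overlap, so U93 stood higher relative to mgU2-19/30 in vesicles of both knockouts than in wild type vesicles. In cells it was 0.221 ± 0.0793 for ATG7-/-, 0.339 ± 0.05 for ATG12-/- and 0.217 ± 0.0279 for wild type. ATG12-/- cells, at 0.285 to 0.384, lay above ATG7-/- cells, at 0.129 to 0.273, and wild type cells, at 0.189 to 0.245. U93 over mgU2-25/61 was 0.108 ± 0.0278 in ATG7-/- vesicles, 0.0765 ± 0.00927 in ATG12-/- vesicles and 0.0245 ± 0.00423 in wild type vesicles. In cells that ratio was 0.320 ± 0.0422 for ATG7-/-, 0.272 ± 0.0202 for ATG12-/- and 0.202 ± 0.0359 for wild type. Both knockouts lay above wild type without overlap, in vesicles and in cells. U91 over mgU2-25/61 was 0.292 ± 0.0473 in ATG7-/- vesicles, 0.160 ± 0.0036 in ATG12-/- vesicles and 0.249 ± 0.00478 in wild type vesicles. The ATG12-/- vesicles were below both other vesicle groups in this ratio, where U91 had a called fall and mgU2-25/61 did not.

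**Figure D4:**
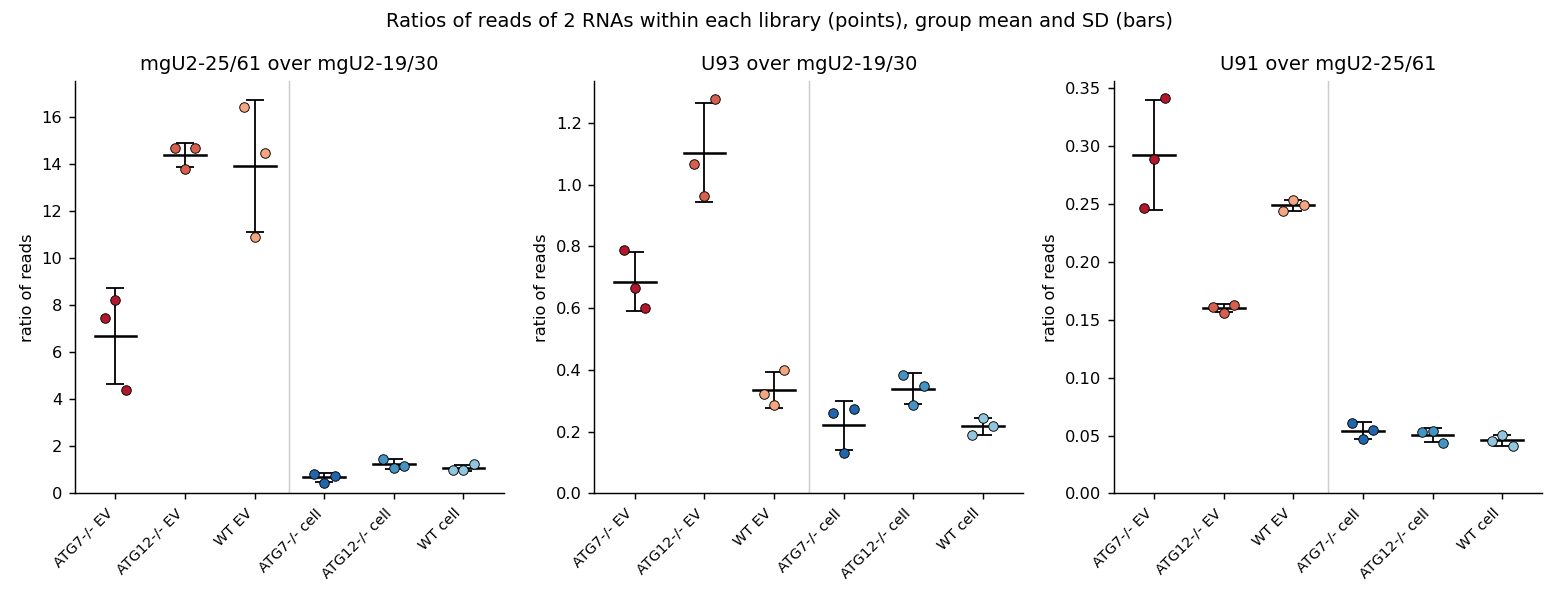
Ratio of the reads of 2 Cajal body RNAs within each library (y axis, from 0), for ATG7-/-, ATG12-/- and wild type (WT) vesicles (EV) and cells. Points are libraries, lines means and bars SD (n = 3). The left panel separates vesicles from cells, ATG7-/- vesicles from the other vesicles and ATG7-/- cells from the other cells. In the middle panel all 3 vesicle groups separate, as do ATG12-/- cells from the other cells. The right panel separates ATG12-/- vesicles from the other vesicles.

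The rows mgU2-25/61 and HBII-382 both belong to the SCARNA2 gene, and their reads were compared within each library. mgU2-25/61 had more reads than HBII-382 in 18 of 18 libraries, and the excess was 95 of 3002 mgU2-25/61 reads in vesicles (3.16%) and 367 of 2923 in cells (12.6%). By library it was 1.75% to 6.35% in vesicles and 7.93% to 18.1% in cells, with no overlap. Wild type vesicles had 1.77% ± 0.0233, wild type cells 12.4% ± 3.95, ATG7-/- vesicles 4.52% ± 2.09 and ATG7-/- cells 14.8% ± 3.50, and ATG12-/- vesicles 4.27% ± 2.24 and ATG12-/- cells 11.3% ± 1.10 (SD, n = 3 each). Each of these 3 comparisons, and those of either knockout's vesicles with wild type vesicles, reached the smallest exact permutation p of 0.1 (0.16 after Benjamini-Hochberg adjustment over 8 comparisons of this share). The share depends on the level of mgU2-25/61 as well as on the excess. The excess itself was 7.42 ± 3.92 normalised reads in ATG7-/- vesicles, 23.5 ± 14.6 in ATG12-/- vesicles and 12.9 ± 1.71 in wild type vesicles, groups that overlapped (exact permutation p = 0.2 and 0.4 for the knockouts against wild type, 0.32 and 0.457 adjusted over 8 comparisons of the excess). In cells it was 26.7 ± 3.61 for ATG7-/-, 22.0 ± 2.80 for ATG12-/- and 33.7 ± 9.61 for wild type, so that vesicles lay below cells for ATG7-/- and wild type (exact permutation p = 0.1, 0.32 adjusted) and overlapped them for ATG12-/- (exact permutation p = 0.8). Which stretch of SCARNA2 each row counts is not stated, so the excess cannot be assigned to a part of the RNA.

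**Figure D5:**
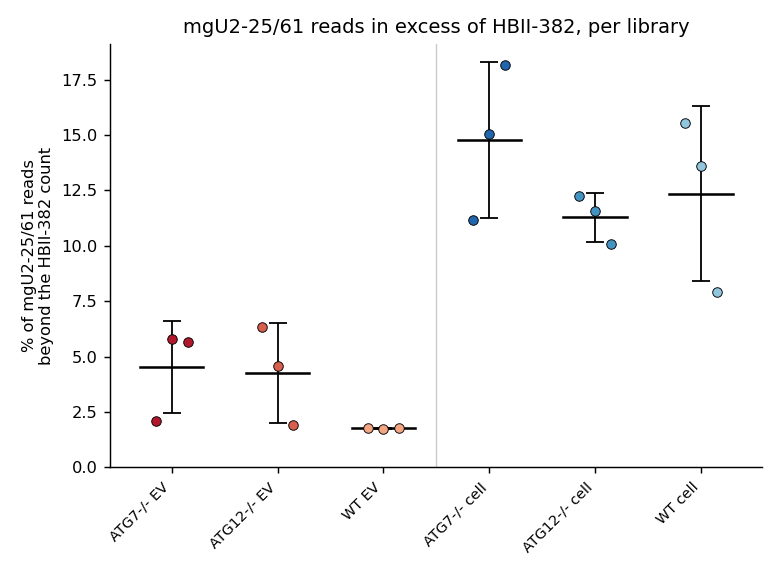
Reads of mgU2-25/61 beyond the count of HBII-382, both rows of SCARNA2, as a percent of mgU2-25/61 reads (y axis, from 0), in ATG7-/-, ATG12-/- and wild type (WT) vesicles (EV) and cells. Points are libraries, lines means and bars SD (n = 3); all 9 vesicle libraries lie between 1.75% and 6.35% and all 9 cell libraries between 7.93% and 18.1%.

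Levels of different RNAs were compared per length for 6 rows, with the annotated length standing for the counted one, which is not stated; a shorter counted stretch would raise a value, that of mgU2-25/61 included. Per 100 bases, mgU2-25/61 was the highest in vesicles of each genotype, at 40.2 ± 10.9 normalised reads in ATG7-/-, 127 ± 15.5 in ATG12-/- and 173 ± 20.8 in wild type (SD, n = 3 each). In wild type vesicles mgU2-19/30 followed at 14.9 ± 1.33, then U89 at 9.36, U85 at 8.10, U93 at 6.41 and U90 at 5.51 per 100 bases, and of these neighbours only mgU2-19/30 stood apart from the next beyond the spread. U93 was near the low end there but next after mgU2-25/61 in ATG12-/- vesicles, at 14.8 ± 1.95 per 100 bases. In wild type cells mgU2-19/30 had 72.3 ± 5.21 and mgU2-25/61 65.9 ± 6.73, ahead of U89 at 23.0, U93 at 20.1, U90 at 15.8 and U85 at 10.5 per 100 bases.

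Correlations over the 18 libraries take in the contrast of vesicles and cells as well as differences among genotypes. A high value therefore need not mean likeness within vesicles or within cells. On the log2 scale mgU2-19/30 correlated with U89 and U90 at 0.90, and with U91 at -0.81. Outside the 8, the features most like each by Pearson r among 905 were U70B and U17a for U91 (0.991 and 0.985) and for mgU12-22/U4-8 (0.991 and 0.984), U45A and U63 for mgU2-19/30 (0.992 and 0.990), and SNORA84 for mgU2-25/61 (0.966, after HBII-382). U88 and U62B were the closest to U85 (0.904 and 0.897), miR-664b-5p and HBII-316 to U89 (both 0.944), U36C and U84 to U90 (0.940 and 0.933), and ACA7 and HBII-420 to U93 (both 0.904). These values are descriptions without a test.

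The other scaRNAs of the table, most of them H/ACA guides, form a list of 16 rows that includes HBII-382. In ATG7-/- over wild type vesicles 13 of 16 fell and 0 rose, with a median log2 fold change of -1.69, among them U100 (-2.66), U87 (-2.59), ACA11 (-2.45) and ACA26 (-2.27), and with ACA68 (-0.43), U109 (-0.74) and HBI-100 (-1.21) not called; these last names were picked after their values were seen. In ATG12-/- over wild type vesicles 3 fell, U87 (-2.11), U88 (-1.55) and ACA11 (-1.01), and 0 rose, with a median of -0.31. No other scaRNA was called in the direction of U93. In wild type vesicles over wild type cells 7 of 16 were higher and 6 lower, with a median of -0.16. In cells, 2 of 16 fell in ATG7-/- (U88 and HBII-382) and 1 in ATG12-/- (U88).

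The snRNA rows used here are 5, U1, U2, U4 and U5, on which guides among the 8 act, and U6, which is not a target of any of them as described above; U12 was not analysed here. In ATG7-/- over wild type vesicles U5 (-1.17), U2 (-0.56) and U4 (-0.44) fell, U6 (1.03) rose and U1 (-0.14) was not called. In ATG12-/- over wild type vesicles U5 (-1.24) fell, U6 (1.28), U1 (0.71) and U2 (0.59) rose and U4 (-0.01) was not called. U2, the target for which mgU2-25/61 and mgU2-19/30 are named, was thus called lower in ATG7-/- vesicles and higher in ATG12-/- vesicles. In ATG7-/- over wild type cells the log2 fold changes of the 5 were -0.18 to 0.11, with no adjusted p under 0.316, and in ATG12-/- over wild type cells U4 (-0.64) was the 1 called. In wild type vesicles over wild type cells U1 (4.26), U5 (1.499), U6 (1.48) and U2 (0.66) were higher and U4 (-1.55) lower. These wild type vesicle over cell values of both lists use the deposited size factors. Library totals shifted the all-feature median of that comparison by -1.44, and values of the lists under that scaling are not given here.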

How the data were processed

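Small RNA libraries of 18 samples were made with the SMARTer smRNA-Seq kit and 12 PCR cycles and sequenced as single 50-base reads, per the labels' protocols. The submitters' processing notes name cutadapt 2.3, Bowtie2 2.3, bedtools, DESeq2 and the builds GRCh38 and hg38; their order and settings, the annotation, and the treatment of strand and of reads with several matches are not given in the sources used here. The deposited values are a signal made by the authors, whole reads divided by 1 size factor per library: 100.0% of values above 0 were whole multiples of what 1 read is worth (tolerance 1e-06), so reads were recovered by dividing. PCR duplicates cannot be removed without molecular identifiers.

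Groups come from the labels. The main test was limma 3.58.1 (R 4.3.3, trended variance) on log2(normalised reads + 1), which understates changes of low features, with features at 10 or more in at least 3 fitted libraries and Benjamini-Hochberg adjustment over all features tested. Vesicle comparisons used the 9 vesicle libraries, cell comparisons the 9 cell libraries, and vesicle over cell comparisons and interactions all 18. Adjusted p-values in the report are from this test unless another is named; those under 0.05 are calls. Single ratios had exact two-sided permutation tests. Alternatives were TMM factors, library totals, TMM factors from microRNAs, other filters and pseudocounts, edgeR 4.0.16 and DESeq2 1.42.0 on the recovered reads, only the groups compared, the replicate number as a block, and each replicate left out.

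The rule for names was all 8 rows in every comparison, with the 2 features most like each over the 18 libraries and up to 4 examples of each comparison list. The rows and lists were chosen with earlier results of these data known.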

Additional observations from a re-analysis of the deposited data

Results flagged for a closer look

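The change in vesicles differed from the change in cells of the same genotype, by the interaction test of limma over all 18 libraries, for 7 results. For ATG7-/- the difference of log2 fold changes was -1.58 for U91, -1.54 for mgU2-25/61, -1.46 for mgU12-22/U4-8, -1.37 for U89, -1.15 for mgU2-19/30 and -1.13 for U85. The calls for U91, mgU2-25/61, mgU12-22/U4-8 and mgU2-19/30 were made in 29 of 29 alternatives, that for U89 in 23 of 29 and that for U85 in 18 of 28. U91 and mgU12-22/U4-8 appear to rest on largely the same reads. For ATG12-/- the difference was 1.22 for U93, called in 28 of 29 alternatives and lost with library totals (0.63, adjusted p = 0.133).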

How the results depend on the processing

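Among the results for single RNAs, 1919 values under an alternative kept direction and side of the threshold, 79 lost a call, 36 gained one and 57 changed sign; the cause was not tested. Counts of called RNAs that moved by over 1.5 times are given first. A minimum of 50 left 3 calls in ATG7-/- over wild type vesicles, against 6, and 3 in ATG12-/- over ATG7-/- vesicles, against 5, since it tested fewer of the 8. Library totals and TMM factors from microRNAs each gave 6 in ATG12-/- over wild type vesicles, against 3, and the latter gave 6 in ATG7-/- over wild type cells, against 1. In ATG12-/- over wild type cells, TMM factors, no filter, edgeR and DESeq2 each gave 1 and library totals 0, against 4. In ATG12-/- over ATG7-/- cells, TMM factors, library totals, no filter, edgeR and only the groups compared each gave 1 and TMM factors from microRNAs 0, against 2. For the ATG12-/- interaction, TMM factors, library totals, pseudocount 5 and edgeR each gave 2, against 1. Smaller moves were 4 calls, against 6, for the ATG7-/- interaction with no filter and with TMM factors from microRNAs, where U85 and U89 lost theirs, 8, against 6, for ATG12-/- vesicles over cells with TMM factors, edgeR and library totals, where U85 and U93 gained one, and others by 1 call. Leaving out each replicate gave 5 to 6 calls in ATG7-/- over wild type vesicles, 3 to 4 in ATG12-/- over wild type vesicles, 4 to 5 in ATG12-/- over ATG7-/- vesicles, 0 to 1 in ATG7-/- over wild type cells, 1 to 4 in ATG12-/- over wild type cells, 1 to 2 in ATG12-/- over ATG7-/- cells, 7 to 7 for wild type and for ATG7-/- vesicles over cells, 6 to 7 for ATG12-/- vesicles over cells, 4 to 6 for the ATG7-/- interaction and 1 to 1 for the ATG12-/- interaction.

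Sign changes concerned values not called in the main analysis, except for mgU2-25/61 in vesicles over cells under library totals, -0.13 for wild type and -0.66 for ATG12-/-. In ATG7-/- over wild type cells they were U89 with DESeq2 (0.013) and, with TMM factors from microRNAs, U90 (-0.51), U93 (-0.44) and mgU2-19/30 (-0.40). U93 in ATG12-/- over wild type cells had 0.088 with TMM factors, 0.17 with library totals, 0.086 with edgeR and 0.081 with DESeq2. For ATG12-/- over ATG7-/- cells, U91 had 0.068 with TMM factors, 0.11 with library totals, 0.23 with TMM factors from microRNAs, 0.049 with edgeR and 0.0079 with DESeq2, mgU12-22/U4-8 had 0.058, 0.095, 0.22 and 0.028 with the first 4 of these, and with TMM factors from microRNAs U89 had 0.017 and U93 0.13. That setting also gave mgU2-25/61 0.44 in ATG7-/- vesicles over cells and U93 0.26 for the ATG7-/- interaction. For the ATG12-/- interaction mgU2-19/30 had -0.12, -0.36 and -0.12 and mgU2-25/61 -0.26, -0.53 and -0.25 with TMM factors, library totals and edgeR. With a replicate left out, uncalled values spanned 0 in ATG7-/- over wild type vesicles for U93 (-0.11 to 0.083), in ATG12-/- over ATG7-/- vesicles for U90 (-0.43 to 0.55), and in ATG7-/- over wild type cells for U89 (-0.33 to 0.074), U90 (-0.073 to 0.14), U93 (-0.057 to 0.26) and mgU2-19/30 (-0.032 to 0.27). They also did for U93 in ATG12-/- over wild type cells (-0.12 to 0.0064), for U91 (-0.21 to 0.21), mgU2-25/61 (-0.014 to 0.25) and mgU12-22/U4-8 (-0.27 to 0.15) in ATG12-/- over ATG7-/- cells, for mgU2-25/61 in ATG7-/- vesicles over cells (-0.31 to 0.088), for U93 in the ATG7-/- interaction (-0.28 to 0.036), and in the ATG12-/- interaction for U85 (-0.54 to 0.040), U90 (-0.66 to 0.32) and mgU2-25/61 (-0.045 to 0.13).

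Replicate numbers showed no clear pairing of the libraries: 9 of 45 same-numbered pairs correlated above 0.1 (range -0.225 to 0.198). In 35 of 90 tests of a library against another group it correlated best with its own number, each a choice among 3 libraries. With the replicate block, U85 was called in ATG12-/- over wild type vesicles (adjusted p = 0.0314, 4 calls in all) and mgU2-19/30 lost its call in ATG12-/- over ATG7-/- vesicles (adjusted p = 0.0713, 4 calls in all), and no other call changed. Depth limits U85, U89 and U90 in vesicles, at 3 to 24 reads per library. It also limits U93 in vesicles, at 11 to 32 reads, and U91 in cells, at 9 to 21.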
